A study of Mus musculus with 8 samples.

Results

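The genes described here are 10 members of the AP-1 family and its BATF, ATF3 and CREM relatives: Fos, Fosb, Fosl2, Jun, Junb, Jund, Batf, Batf3, Atf3 and Crem. They were chosen by name, and all 10 were found among the 57180 genes of the deposited count table. Their RNA was measured by sequencing in regulatory T cells (Treg cells, CD4 T cells that keep other immune cells in check), taken from different mice and sorted by FACS. There were 3 chimera KO libraries (KO1 to KO3) and 5 chimera WT libraries (WT1 to WT5). The labels give neither the deleted gene, nor the make-up of the chimeras, nor an age or strain, so a targeted gene could not be checked and the groups are called chimera KO and chimera WT. Each library was made from 10 ng of total RNA with a low-input, full-length kit that does not mark strand, and no label ties a library to a single animal. The p-values therefore measure the spread between these libraries, which may be technical in part.

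AP-1 is not 1 protein but a set of dimers. FOS and JUN proteins each carry a basic region that contacts DNA and a leucine zipper that holds the pair together. FOS proteins must pair with a JUN protein, JUN proteins can also pair with each other, and BATF pairs with a JUN protein and binds beside IRF4 in lymphocytes. Many of these genes are immediate early genes: a stimulus switches them on within minutes through kinases and factors that are already in the cell, and the transcripts are short lived. In Treg cells AP-1 works with NFAT downstream of the T cell receptor, and BATF is known as a factor of effector and tissue Treg cells.

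Promoter windows of Fos, Junb and Jun are shown here as examples. Fos and Junb had the highest mean levels of the 10 genes, and Jun was added, after its values were seen, as the classical partner of Fos. Each window runs from 250 bases before to 50 bases after the RefSeq start on GRCm38.p6, 5′ to 3′ on the strand of the gene, and capitals mark the motifs that were found. The Fos window lies at chr12:85473640-85473939 on the plus strand, the Jun window at chr4:95052173-95052472 on the minus strand and the Junb window at chr8:84978699-84978998 on the minus strand.
Fos: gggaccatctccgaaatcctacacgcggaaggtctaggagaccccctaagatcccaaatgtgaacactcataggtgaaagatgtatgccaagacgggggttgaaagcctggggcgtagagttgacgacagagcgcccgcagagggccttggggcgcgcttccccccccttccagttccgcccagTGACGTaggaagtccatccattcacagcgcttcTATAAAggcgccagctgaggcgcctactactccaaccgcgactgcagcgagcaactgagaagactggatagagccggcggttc
Jun: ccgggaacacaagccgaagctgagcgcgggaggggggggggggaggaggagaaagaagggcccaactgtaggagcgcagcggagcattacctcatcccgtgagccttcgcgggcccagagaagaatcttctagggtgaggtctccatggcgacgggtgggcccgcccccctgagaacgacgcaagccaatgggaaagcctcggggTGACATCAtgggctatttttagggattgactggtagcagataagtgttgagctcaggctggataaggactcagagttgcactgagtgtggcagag
Junb: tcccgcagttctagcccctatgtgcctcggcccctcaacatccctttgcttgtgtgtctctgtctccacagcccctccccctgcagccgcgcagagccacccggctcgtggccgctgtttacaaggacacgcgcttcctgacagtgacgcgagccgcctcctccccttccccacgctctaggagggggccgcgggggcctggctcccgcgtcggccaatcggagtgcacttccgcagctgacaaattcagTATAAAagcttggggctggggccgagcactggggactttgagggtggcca
In the Fos window the capitals are TGACGT, the core of the cyclic AMP response element that CREB binds, 66 bases before the start, and the TATA box TATAAA, 33 bases before it. In the Jun window they are TGACATCA, a variant of the AP-1 site known from the Jun promoter, 45 bases before the start. In the Junb window they are TATAAA, which begins at the RefSeq start, while the start in GENCODE M21 lies 30 bases downstream.

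Promoter windows of 9 of the 10 genes were searched on both strands, and the searches found no TGACTCA (the AP-1 site), no TGACGTCA (the full cyclic AMP response element) and no CArG box (the element of serum response factor) in any of them. The windows reach only 250 bases upstream, so elements further from the start could not be found. The absence of a motif therefore holds for the windows and not for the whole promoters. Among all 32851 RefSeq windows of this length, TGACTCA was in 5.20%, TGACGTCA in 1.79%, the CArG box in 1.63% and TATAAA in 13.6%. TGACGT and TGACATCA were added to the search after the windows had been read, and they were in 7.51% and 3.62% of the windows. TGACGT is part of TGACGTCA, so matches of the longer motif count for both. TGACGT was also in the Batf window, 98 bases before the start, and on the opposite strand of the Atf3 window, 8 bases before a RefSeq start that lies 34706 bases from the start of Atf3 in GENCODE M21. The Fosb window held no motif of those searched. A match is a run of letters and is not by itself a bound site. The Jund window, which the level of the gene would also have placed here, is not shown because its RefSeq start lies 1210 bases from its start in GENCODE M21.

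The libraries differed in depth and in make-up. The chimera KO libraries held 4.31 to 8.48 mega counts and the chimera WT libraries 10.5 to 18 mega counts. Genes with at least 10 counts numbered 12398 to 14245 in chimera KO and 12660 to 14009 in WT1 to WT3, but 8201 in WT4, the deepest library, and 9422 in WT5; the part of this difference in the results below was not tested. TMM factors, which rescale each library by its bulk of genes, were 1.32 to 1.49 in chimera KO and 0.4 to 1.15 in chimera WT, the lowest being those of WT4 (0.4) and WT5 (0.689). Levels below are CPM divided by these factors (normalised CPM) unless they are called TPM. The 7 Treg markers were all detected in each of the 8 libraries, and their summed level was 787 to 2825 normalised CPM in chimera KO and 2822 to 6281 in chimera WT. Scaled by library totals alone, the sums were 3810, 1759 and 1018 CPM in KO1 to KO3, against 4436, 6793, 5853, 1710 and 1919 in WT1 to WT5. On that scale WT4 and WT5 lay within the chimera KO range. Ikzf2 and Ctla4 were the highest of the 7 markers. Foxp3, the factor that defines Treg cells, averaged 17.8 ± 13.2 normalised CPM in chimera KO and 19.0 ± 19.1 in chimera WT (SD, n = 3 and 5). By library Foxp3 was at 26.6, 2.69 and 24.2 in KO1 to KO3, against 11.9, 36.6, 41.9, 3.09 and 1.26 in WT1 to WT5. Ikzf2 was lowest in WT4, at 81.1, against 420 to 1664 in chimera KO and 1089 to 4633 in the other chimera WT libraries.

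Markers of other cells were high in single chimera WT libraries. The 6 B cell markers summed to 80.0 to 194 in chimera KO, to 199 to 554 in 4 chimera WT libraries and to 3108 in WT4, led by Ighm and Ms4a1. The 7 markers of CD8 T and NK cells summed to 4.49 to 63.2 in chimera KO, to 48.4 to 122 in 4 chimera WT libraries and to 4276 in WT4, led by Nkg7 and Gzma. Gzma and Klrd1 were at 0 in the other 7 libraries, and Ncr1 of NK cells was at 0 in all 8. Of the CD8 genes, Cd8a was at 0 in WT4 and Cd8b1 was highest there, at 236 normalised CPM, against 3.5 to 61.6 in chimera KO and 1.26 to 4.15 in the other chimera WT libraries. The 6 erythroid markers, led by the globin genes Hba-a1 and Hbb-bs, summed to 0.449 to 7.16 in chimera KO, to 0 to 22.2 in 4 chimera WT libraries and to 9102 in WT5. Myeloid markers, led by S100a9 and Lyz2 in mean level, summed to 5.25 to 58.2 in chimera KO and 3.9 to 297 in chimera WT. The highest sum was again in WT4, where S100a9 was at 189 normalised CPM but Lyz2 was at 0. The 4 platelet markers, led by Itga2b and Gp9, summed to at most 4.12 in any library, with Pf4 and Ppbp at 0 in all 8. The part of these other cells in the results below was not tested, and the edgeR results of the tested members and the list medians are therefore also given without WT4 and WT5. In bulk RNA, fewer cells of a type and less RNA per cell cannot be told apart.

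Of the 10 genes, 7 passed the filter on low counts and were tested, and edgeR's quasi-likelihood test called 0 of them at an adjusted p under 0.05. It called 0 of all 14755 genes tested (0%), while 2124 genes (14.4%) had an unadjusted p under 0.05, 949 of them (6.43% of those tested) lower in chimera KO. Fos was the 1 member with an unadjusted p under 0.05. In all 7 tested members the 2 groups overlapped, whereas every chimera KO library lay below every chimera WT library for 4.49% of all genes and above for 13.2%. DESeq2 on the same counts called Fos alone, as lower in chimera KO, and it called 10.0% of all genes lower and 6.40% higher. Of the tested members, 6 had a negative log2 change and 1, Crem, a positive one; with library totals alone Jund was positive too, at 0.32, and with DESeq2 size factors Crem was negative, at -0.36. Their median log2 change was -2.12, against -0.42 for all genes tested, of which 56.8% were negative, and -0.87 for protein-coding genes, of which 66.5% were negative. Fosl2, Batf3 and Atf3 are not in these counts, which describe the tested members and are no test of the family.

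**Figure D1:**
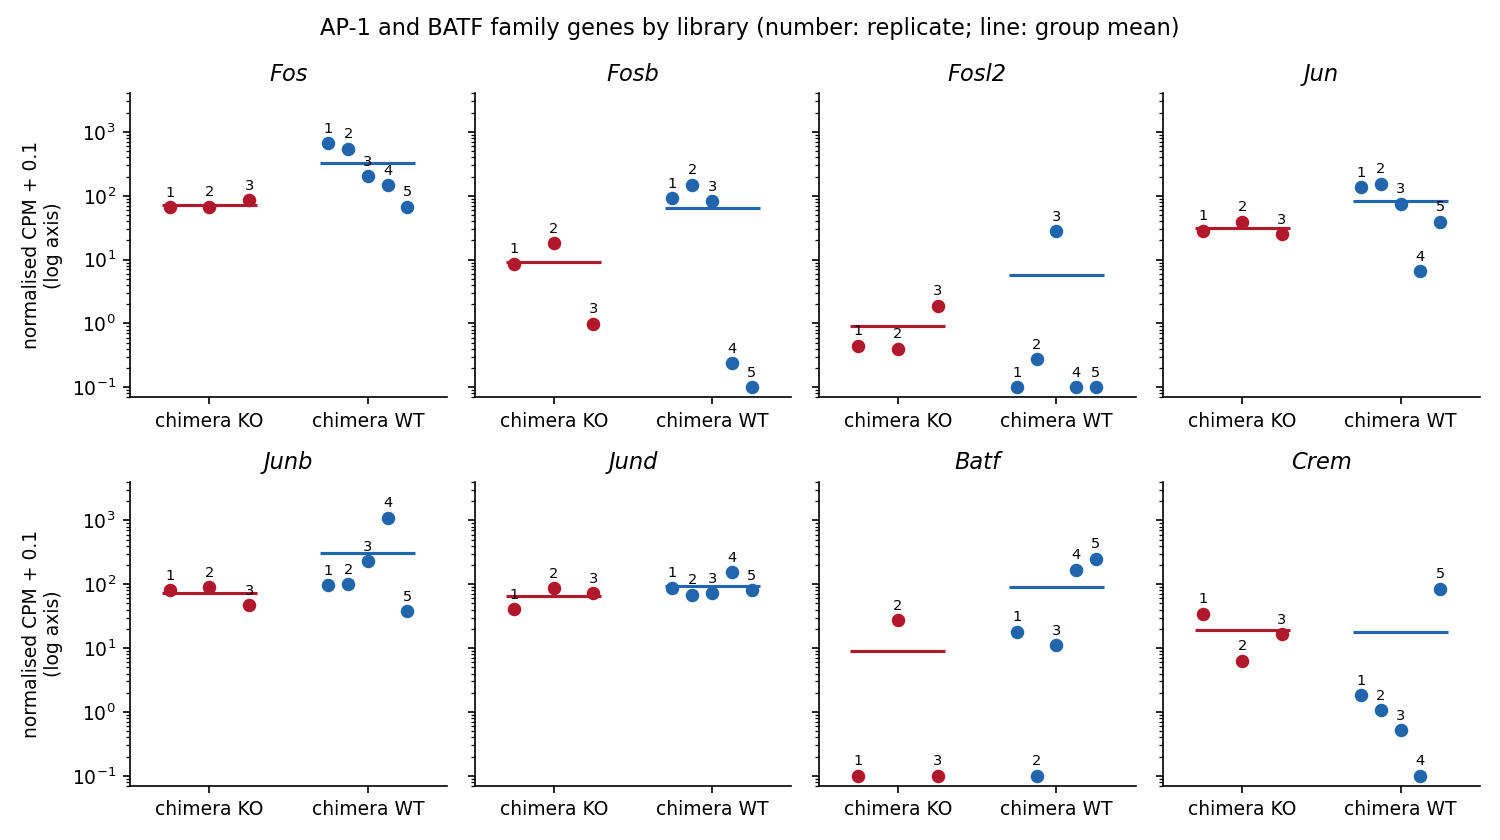
TMM-normalised CPM of the 8 members with more than 1 count in some library, on a log axis (0.1 added) with the group mean as a line, with chimera KO libraries left of chimera WT libraries. Fos lies between 65.9 and 85.2 in the 3 chimera KO libraries and between 67.1 and 665 in the 5 chimera WT libraries, and the groups overlap in each tested member.

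Fos, the founding FOS protein and a classical immediate early gene (chr12, 85473890 to 85477273, plus strand, ENSMUSG00000021250), was measured in each library, with 449 to 754 counts in chimera KO and 481 to 8009 in chimera WT. Its level was 65.9, 67.1 and 85.2 normalised CPM in KO1 to KO3, against 665, 547, 202, 145 and 67.1 in WT1 to WT5. The 3 chimera KO libraries were close together, and the spread lay in chimera WT, where WT1 and WT2 were highest and WT5 stood at the chimera KO level. The means were 72.8 ± 10.8 in chimera KO and 325 ± 264 in chimera WT (SD, n = 3 and 5). The log2 change was -2.16 (SE 0.85, 95% interval -4.06 to -0.26), with an unadjusted p of 0.0297 and an adjusted p of 0.325 in edgeR. DESeq2 gave a log2 change of -2.35 and an adjusted p of 0.0104, and over the 17 alternatives the adjusted p ran from 0.0104 to 0.727.

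Without WT4 and WT5, the libraries with the marker genes of other cells, Fos averaged 91.3 ± 14.7 in chimera KO and 577 ± 286 in chimera WT (SD, n = 3 each), and the groups no longer overlapped. The log2 change was then -2.66, with an unadjusted p of 0.0014 and an adjusted p of 0.221 in edgeR. Among the 14175 genes tested without these libraries, 10.9% had every chimera KO library below every chimera WT library, 16.2% had every one above, and 6.36% had an unadjusted p under 0.05 with a lower level in chimera KO. The place of WT4 and WT5 in the order depended on the scale: in TPM, which is set by length and library total, Fos was at 74.6, 74.7 and 84.5 in KO1 to KO3, against 618, 515, 160, 31.3 and 30.7 in WT1 to WT5, so that WT4 and WT5 lay below all chimera KO libraries.

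Fosb, a close relative of Fos that is switched on by the same signals and has a more stable splice form (chr7, 19302696 to 19310051, minus strand, ENSMUSG00000003545), had a split of its own. It was at 8.48, 17.8 and 0.895 normalised CPM in KO1 to KO3, against 91.6, 148, 81.5, 0.14 and 0 in WT1 to WT5. WT1 to WT3 were high and WT4 and WT5 held 1 and 0 counts, below each chimera KO library, so the groups overlapped at both ends. The means were 9.06 ± 8.46 in chimera KO and 64.2 ± 63.7 in chimera WT (SD, n = 3 and 5), and the log2 change of -2.82 had a 95% interval of -7.72 to 2.08 and an adjusted p of 0.504 in edgeR. Without WT4 and WT5 every chimera KO library was below every chimera WT library, at 11.6 ± 11.3 and 132 ± 44.8 (SD, n = 3 each), with a log2 change of -3.51, an unadjusted p of 0.0136 and an adjusted p of 0.281 in edgeR; its adjusted p ran from 0.22 to 0.796 over the 17 alternatives. In WT4, at 0.14 normalised CPM, Fosb gave 0.000971 counts per count of Fos, against 0.0105 to 0.265 in chimera KO and 0.138 to 0.404 in WT1 to WT3.

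Fosl2, or FRA2, which is known to persist longer after a stimulus than Fos (chr5, 32135801 to 32157842, plus strand, ENSMUSG00000029135), did not pass the filter. It had 4, 1.99 and 9.85 counts in KO1 to KO3, against 0, 2, 333, 0 and 0 in WT1 to WT5. WT3 alone held more than 10 counts, at 28.0 normalised CPM. Fosl1, the remaining gene of the FOS subfamily, had 0 counts in all 8 libraries, and a count of 0 allows 0.249 to 0.537 normalised CPM by library when up to 3 counts are taken as compatible with it; such limits cover counting error only.

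Jun, the classical partner of Fos and a target of the JNK kinases (chr4, 95049034 to 95052222, minus strand, ENSMUSG00000052684), was at 28.2, 39.0 and 24.7 normalised CPM in KO1 to KO3, against 137, 154, 75.2, 6.46 and 38.9 in WT1 to WT5. As with Fos, WT1 and WT2 were highest. WT4 was the lowest of the 8 libraries and WT5 lay within the chimera KO range. Jun averaged 30.6 ± 7.48 in chimera KO and 82.5 ± 63.1 in chimera WT (SD, n = 3 and 5), a log2 change of -1.43 (SE 1.05, 95% interval -3.77 to 0.91) with an adjusted p of 0.482 in edgeR. Without WT4 and WT5 the groups did not overlap, with 38.7 ± 11.3 in chimera KO and 150 ± 50.3 in chimera WT (SD, n = 3 each), a log2 change of -1.96, an unadjusted p of 0.00908 and an adjusted p of 0.267 in edgeR, within a range of 0.155 to 0.776 over the 17 alternatives. Exons of the antisense gene Junos overlap Jun, and without strand their reads cannot be told apart; Junos itself was given 1.5 to 14.3 normalised CPM in chimera KO and 0 to 8.63 in chimera WT.

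Junb, a JUN protein that pairs with BATF in T cells (chr8, 84974484 to 84978718, minus strand, ENSMUSG00000052837), was set apart by 1 library. It was at 81.3, 89.0 and 46.4 normalised CPM in KO1 to KO3, against 96.9, 101, 232, 1102 and 38.1 in WT1 to WT5. WT4 was highest, WT5 was lowest of all, and WT1 and WT2 were close to KO1 and KO2. The means were 72.2 ± 22.7 in chimera KO and 314 ± 446 in chimera WT (SD, n = 3 and 5), and the log2 change of -2.12 (SE 1.12) had an unadjusted p of 0.0878 and an adjusted p of 0.379 in edgeR. Without WT4, the library with the B, CD8 T and NK cell markers, the log2 change was -0.69, and without WT4 and WT5 it was -0.97 with an adjusted p of 0.432, and over the 17 alternatives the adjusted p ran from 0.0567 to 0.744. Exons of Prdx2 on the other strand overlap Junb, and Prdx2 was at 44.4 to 62.1 normalised CPM in chimera KO and 62.6 to 700 in chimera WT, with its highest value in WT4 as well.

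Jund, the JUN protein that resting cells hold at a steady level (chr8, 70698949 to 70700616, plus strand, ENSMUSG00000071076), varied least as the ratio of its highest to its lowest library. It was at 40.8, 86.1 and 72.3 normalised CPM in KO1 to KO3, against 88.5, 68.4, 72.9, 156 and 81.0 in WT1 to WT5. KO1 was lowest and WT4 highest, and the other 6 libraries lay between 68.4 and 88.5. Jund averaged 66.4 ± 23.3 in chimera KO and 93.4 ± 35.8 in chimera WT (SD, n = 3 and 5), a log2 change of -0.49 (95% interval -2.05 to 1.07) with an adjusted p of 0.706 in edgeR, and its sign turned to 0.32 when libraries were scaled by their totals alone. Without WT4 and WT5 it was -0.16, with an adjusted p of 0.899 in edgeR, within a range of 0.289 to 0.955 over the 17 alternatives. The antisense gene Gm11175, which overlaps it, was at most at 2.1 normalised CPM in any library.

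**Figure D2:**
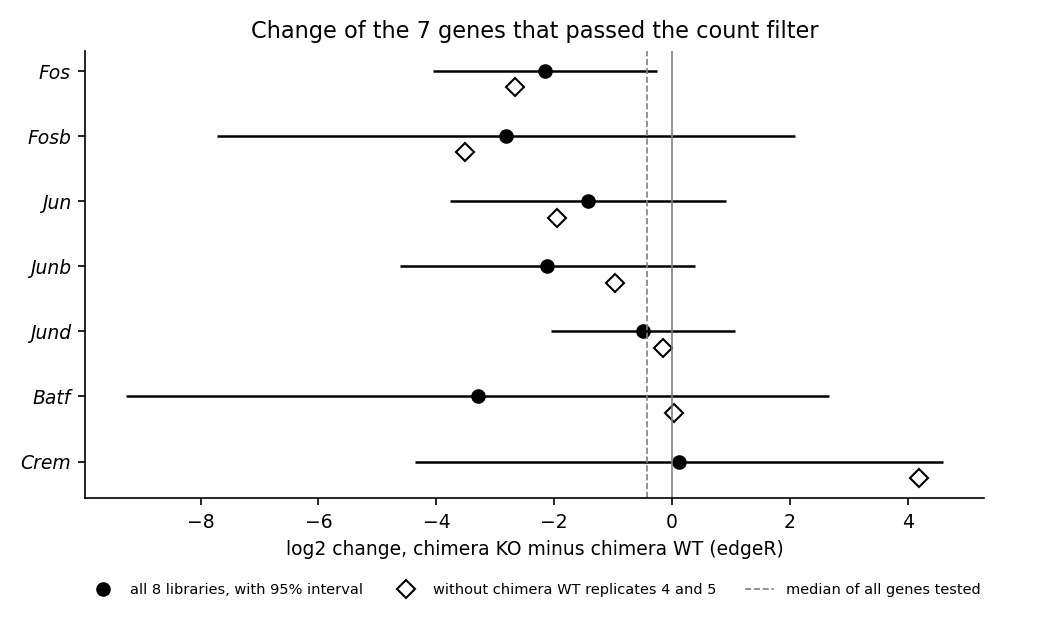
Log2 changes of the 7 tested members, chimera KO minus chimera WT, from edgeR with all 8 libraries (filled points, bars for 95% intervals) and without WT4 and WT5 (open points), with the median of all genes tested as a dashed line. The Fos interval of -4.06 to -0.26 lies below 0, and those of the other 6 genes span 0.

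Batf, which lacks a transactivation domain and binds with a JUN protein and IRF4 (chr12, 85686669 to 85709087, plus strand, ENSMUSG00000034266), was present in some libraries and at 0 in others of both groups. It had 0, 182 and 0 counts in KO1 to KO3, against 217, 0, 130, 1202 and 1792 in WT1 to WT5. In normalised CPM these were 0, 27.2 and 0 in chimera KO, against 18, 0, 10.9, 169 and 250 in chimera WT. WT4 and WT5, with the markers of other cells, were the 2 highest, and KO2 lay above WT1 and WT3. The log2 change was -3.30 with a 95% interval of -9.26 to 2.66 and an adjusted p of 0.518 in edgeR, and without WT4 and WT5 it was 0.03 with an adjusted p of 0.996, the highest of the 17 alternatives, which began at 0.218. A count of 0 allows up to 3 counts, or 0.262 normalised CPM in KO1, 0.537 in KO3 and 0.26 in WT2.

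Batf3, known for its part in dendritic cells and in effector T cells (chr1, 191097847 to 191108945, plus strand, ENSMUSG00000026630), had 1 count in WT1 and 0 in the other 7 libraries. Atf3, a stress-induced relative that can repress AP-1 sites (chr1, 191170296 to 191218039, minus strand, ENSMUSG00000026628), had 0 counts in all 8 libraries. Neither was detectable in these libraries beyond that count. Batf2 had 1 count in 1 library, WT3, and Jdp2, which like BATF and ATF3 can form dimers with JUN proteins, had 9 counts in KO3 and 1 in WT3.

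Crem encodes activators and, from an internal promoter, the cyclic AMP early repressor ICER, and gene-level counts do not separate them (chr18, 3266048 to 3337748, minus strand, ENSMUSG00000063889). It was at 34.5, 6.28 and 16.5 normalised CPM in KO1 to KO3, against 1.74, 0.954, 0.42, 0 and 85.1 in WT1 to WT5. Each chimera KO library was above WT1 to WT4, and WT5 was above them all. The log2 change was 0.11 (SE 2.01, 95% interval -4.37 to 4.60) with an adjusted p of 0.979 in edgeR. Without WT5 it was 4.64, and without WT4 and WT5 it was 4.18, with 23.3 ± 16.4 in chimera KO and 1.27 ± 0.784 in chimera WT (SD, n = 3 each), no overlap, an unadjusted p of 0.0079 and an adjusted p of 0.262 in edgeR (0.211 to 0.982 over the 17 alternatives). WT5 was the library with the globin genes, and there Gm6225, a gene whose exons overlap Crem, was also highest, at 29.3 normalised CPM against 0.299 to 2.15 in chimera KO and 0 to 4.81 in the other chimera WT libraries.

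Levels were compared between genes in TPM, which divides by gene length. In chimera KO the order was Junb (92.0 ± 33.6), Jund (90.0 ± 31.4), Fos (77.9 ± 5.67), Batf (22.3 ± 38.6), Jun (22.0 ± 6.31), Crem (16.4 ± 13.0) and Fosb (5.62 ± 5.27; SD, n = 3 each). In chimera WT it was Fos (271 ± 277), Junb (145 ± 101), Batf (77.8 ± 102), Jund (69.6 ± 25.4), Jun (46.5 ± 42.5), Fosb (32.2 ± 33.0) and Crem (6.61 ± 13.5; SD, n = 5 each). Fosl2, Batf3 and Atf3 are left out of this order. In chimera KO the step from Fos to Batf was the 1 difference between neighbours that was larger than both SDs. In chimera WT no 2 neighbours in the order differed by more than their SDs. Summed over the 10 genes the TPM was 297, 423 and 259 in KO1 to KO3, against 997, 882, 548, 433 and 393 in WT1 to WT5, so that KO2 lay above WT5 and the groups overlapped.

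Within that sum the JUN share was alike in the chimera KO libraries and varied in chimera WT, while the shares of Fos, Batf and Crem varied in both groups. JUN genes (Jun, Junb and Jund) made up 62.7, 62.6 and 62.0% of the summed TPM in KO1 to KO3, against 29.4, 32.7, 59.5, 74.2 and 20.1% in WT1 to WT5. FOS genes (Fos, Fosb and Fosl2) made up 26.9, 20.3 and 33.0% in KO1 to KO3, against 66.7, 67.2, 37.0, 7.23 and 7.81% in WT1 to WT5. WT1 and WT2 were thus mostly Fos and WT4 mostly Junb. WT5 was mostly Batf, which made up 64.2% there, at most 18.6% in the other chimera WT libraries and 0, 15.8 and 0% in chimera KO. Crem made up 1.31 to 10.4% in chimera KO, at most 0.128% in WT1 to WT4 and 7.85% in WT5. No test was made of these shares, since members of a sum move against each other.

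**Figure D3:**
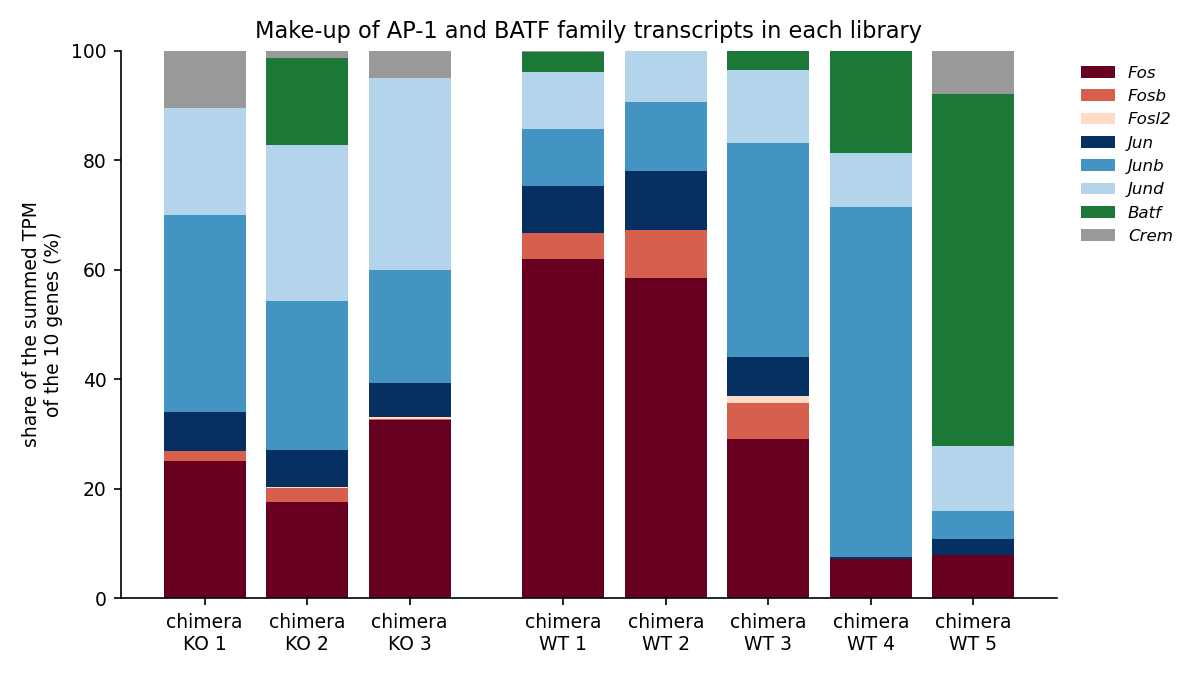
Share of the summed TPM of the 10 genes that belongs to each gene, by library, chimera KO left of chimera WT, with FOS genes in reds, JUN genes in blues, Batf in green and Crem in grey. The JUN share is 62.0 to 62.7% in the 3 chimera KO libraries and 20.1 to 74.2% in the 5 chimera WT libraries.

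Ratios within a library did not depend on how libraries are scaled. Counts of Fos per count of Jund were 1.62, 0.78 and 1.18 in KO1 to KO3, against 7.51, 7.99, 2.77, 0.928 and 0.828 in WT1 to WT5. WT1 to WT3 were above every chimera KO library, and WT4 and WT5 lay within the chimera KO range. Counts of Jun per count of Jund were 0.691, 0.453 and 0.342 in chimera KO, against 1.55, 2.26, 1.03, 0.0414 and 0.48 in chimera WT. WT1 to WT3 were again above every chimera KO library, WT5 lay within the chimera KO range and WT4 lay below it. Counts of Junb per count of Jund did not split that way: they were 2.0, 1.03 and 0.641 in chimera KO and 1.09, 1.47, 3.18, 7.07 and 0.47 in chimera WT.

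The genes whose profile over the 8 libraries was nearest to that of Fos, the member with the highest mean level, were Tubgcp4 (mean absolute log2 difference 0.49), Bcor (0.50), Trim30a (0.52), Usp15 (0.52) and Tbl2 (0.54). They encode a protein of the gamma-tubulin complex, a corepressor of BCL6, a TRIM protein, a deubiquitinase and a WD-repeat protein. The median difference from Fos over the 5687 genes compared was 1.67. Among the members Jun was nearest at 0.77, with 60 of these genes nearer than it, followed by Jund at 1.13, Junb at 1.34, Fosb at 2.60, Crem at 3.58 and Batf at 3.75. For Batf, 5677 of the 5687 genes lay nearer to Fos. The points share library depth and the low-input kit, and the likeness is a description.

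The other genes of the pathway were read from lists that were chosen by role and with earlier results of these data known. In edgeR's quasi-likelihood test 0 genes of any list passed at an adjusted p under 0.05, as in all genes tested, so the values that follow are descriptions. The counts of negative changes below depend on the scaling: the median of all genes tested was -0.42 with TMM, -0.72 with DESeq2 size factors and 0.21 with library totals alone. With TMM the median of protein-coding genes tested was -0.87, and 66.5% of them were negative. With library totals, negative changes were found in 14 of 25 other basic leucine zipper genes, 6 of 6 partners, 15 of 21 upstream genes, 8 of 13 brakes, 16 of 21 immediate early genes and 15 of 19 targets, against 6691 of all 14755 genes. Among other basic leucine zipper genes 25 of 35 were tested, 6 with a positive and 19 with a negative log2 change. Their median was -0.84, near that of protein-coding genes (-0.87). DESeq2 called 3 of the 25 lower and 0 higher, beside 10.0% and 6.40% of all genes. The highest was Bach2, a repressor at AP-1 sites that keeps Treg cells in a resting state, at 181 ± 67.2 normalised CPM in chimera KO and 232 ± 84.1 in chimera WT (SD, n = 3 and 5; log2 change -0.35). Maf, a factor of Il10 expression, was at 73.8 ± 16 in chimera KO and 170 ± 140 in chimera WT, and Creb1, a cyclic AMP-responsive activator, at 80.3 ± 23.1 in chimera KO and 144 ± 162 in chimera WT.

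All 6 DNA-binding partners were tested and had negative log2 changes, at a median of -1.16. DESeq2 called 0 of them, beside 10.0% of all genes called lower and 6.40% called higher. Among the NFAT factors, which share composite sites with AP-1, Nfat5 was at 107 ± 12.4 in chimera KO and 194 ± 181 in chimera WT, Nfatc3 at 85.8 ± 21.3 in chimera KO and 268 ± 334 in chimera WT, and Nfatc1 at 37.3 ± 30.5 in chimera KO and 125 ± 72.8 in chimera WT. Irf4, the partner of BATF, was at 14.8 ± 5.91 in chimera KO and 39.8 ± 51.6 in chimera WT, a log2 change of -1.43. By library Irf4 was at 17.4, 19.0 and 8.05 in KO1 to KO3, against 28.9, 126, 0.168, 43.1 and 0.976 in WT1 to WT5, so that WT5, with the highest Batf level, was at 0.976 for Irf4.

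Upstream of the members, 21 of 23 kinases and factors were tested, 3 with a positive and 18 with a negative log2 change. Their median was -1.31. DESeq2 called 1 of the 21 lower and 0 higher, beside 10.0% and 6.40% of all genes. Map3k1, a kinase that feeds the JNK pathway, was at 83.3 ± 87.7 in chimera KO and 249 ± 121 in chimera WT. Elk4, a partner of serum response factor at the Fos promoter, was at 121 ± 56.9 in chimera KO and 229 ± 150 in chimera WT, and Prkacb, a catalytic subunit of protein kinase A, at 89.4 ± 43.6 in chimera KO and 118 ± 74.1 in chimera WT (SD, n = 3 and 5).

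Brakes on AP-1 had negative log2 changes in 12 of 13 genes, at a median of -1.18, with 3 at an unadjusted p under 0.05, beside 14.4% of all genes, and 4 called lower by DESeq2, beside 10.0% of all genes. Zfp36l2, which encodes an RNA-binding protein of the family that destabilises AU-rich mRNAs such as Fos, was at 597, 157 and 243 normalised CPM in KO1 to KO3, against 1249, 1518, 705, 2268 and 1085 in WT1 to WT5. Every chimera KO library lay below every chimera WT library; the log2 change was -2.04 with an adjusted p of 0.325 in edgeR. Its relative Zfp36l1, at 145 ± 110 in chimera KO and 576 ± 196 in chimera WT, and Dusp1, a phosphatase of MAP kinases, at 125 ± 63.9 in chimera KO and 383 ± 110 in chimera WT (SD, n = 3 and 5), also did not overlap between the groups. These 3 genes with separate groups are 3 of 13, beside 4.49% of all genes tested.

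Other immediate early genes had a median of -1.74 among 21 of 23 tested, with 18 negative, 9 at an unadjusted p under 0.05, and 8 called lower and 1 higher by DESeq2, beside 14.4% of all genes at that p, 10.0% called lower and 6.40% called higher. Btg1, an antiproliferative gene, was at 757 ± 31.8 in chimera KO and 2163 ± 556 in chimera WT. Klf6, a zinc finger factor, was at 61.5 ± 31.4 in chimera KO and 620 ± 333 in chimera WT, and Cd69, an early activation marker that holds T cells in tissue, at 119 ± 86.8 in chimera KO and 875 ± 281 in chimera WT (SD, n = 3 and 5). In each of the 3 the groups did not overlap. Over the list, every chimera KO library lay below every chimera WT library in 4 of 21 tested genes and above in 1, beside 4.49% and 13.2% of all genes tested. Klf6 was at 1058 in WT4 and 254 in WT5, against 35.8 to 96.5 in chimera KO.

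The target list held genes of effector and tissue Treg cells known to depend on BATF, and classical NFAT and AP-1 cytokine targets such as Ifng. Of its 26 genes 19 were tested, 15 with a negative log2 change, at a median of -1.34. In edgeR 4 had an unadjusted p under 0.05, beside 14.4% of all genes. DESeq2 called 6 lower and 0 higher, beside 10.0% and 6.40% of all genes. Ifng, among those 6, was at 295 normalised CPM in WT4, 0 to 73.7 in other chimera WT libraries and 0 to 3.76 in chimera KO. Ctla4, Ikzf2, Il2ra and Tnfrsf18 were also among the 7 Treg markers, which all had negative changes, at a median of -1.34. Ctla4, the coinhibitory receptor, was at 184 ± 150 in chimera KO and 657 ± 227 in chimera WT, with no overlap, Ikzf2 at 927 ± 654 in chimera KO and 2344 ± 1847 in chimera WT, and Il2ra at 237 ± 160 in chimera KO and 428 ± 187 in chimera WT (SD, n = 3 and 5). Without WT4 and WT5 the list medians were -0.97 for the members, -0.53 for other basic leucine zipper genes, -1.41 for partners, -1.03 for upstream genes, -0.81 for brakes, -1.58 for immediate early genes and -1.83 for targets, against -0.15 for all genes tested and -0.48 for protein-coding genes.

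**Figure D4:**
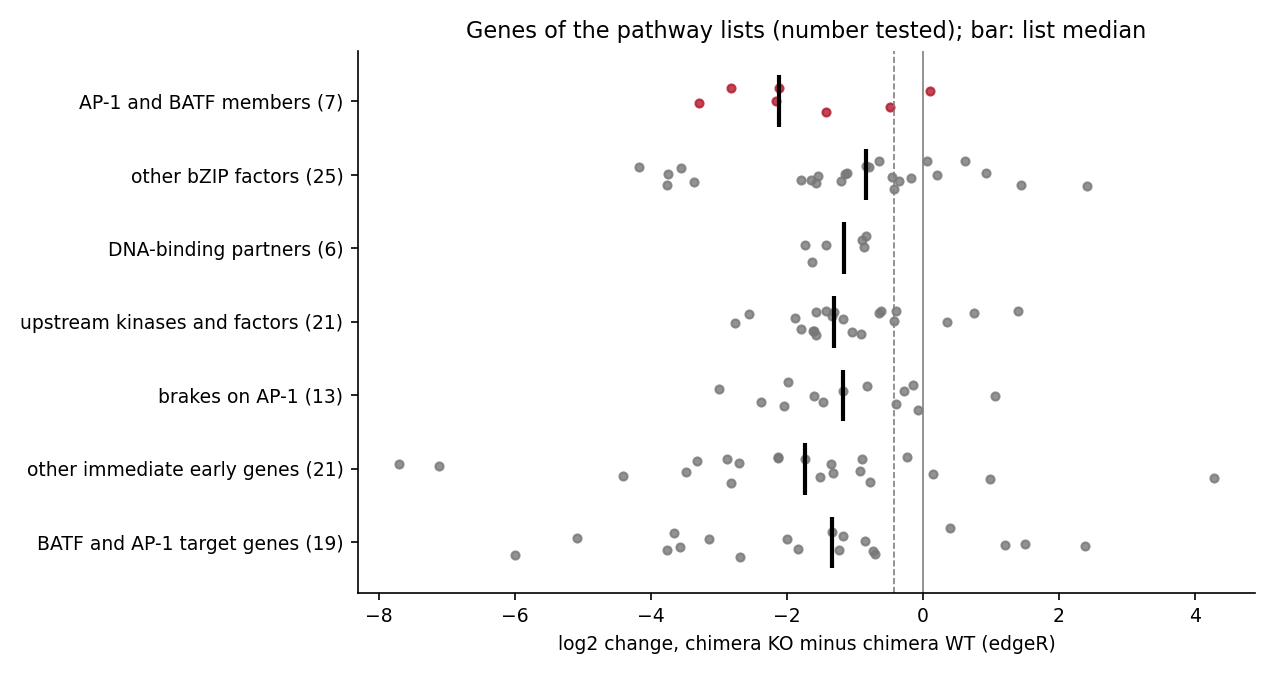
Log2 change, chimera KO minus chimera WT, of each tested gene in the members' list and the 6 other lists, with the median of each list as a bar, no change as a solid line and the median of all genes tested (-0.42) as a dashed line. The members' median is -2.12 over 7 tested genes and that of other immediate early genes is -1.74. The median of protein-coding genes tested, which is not drawn, is -0.87.

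**Figure D5:**
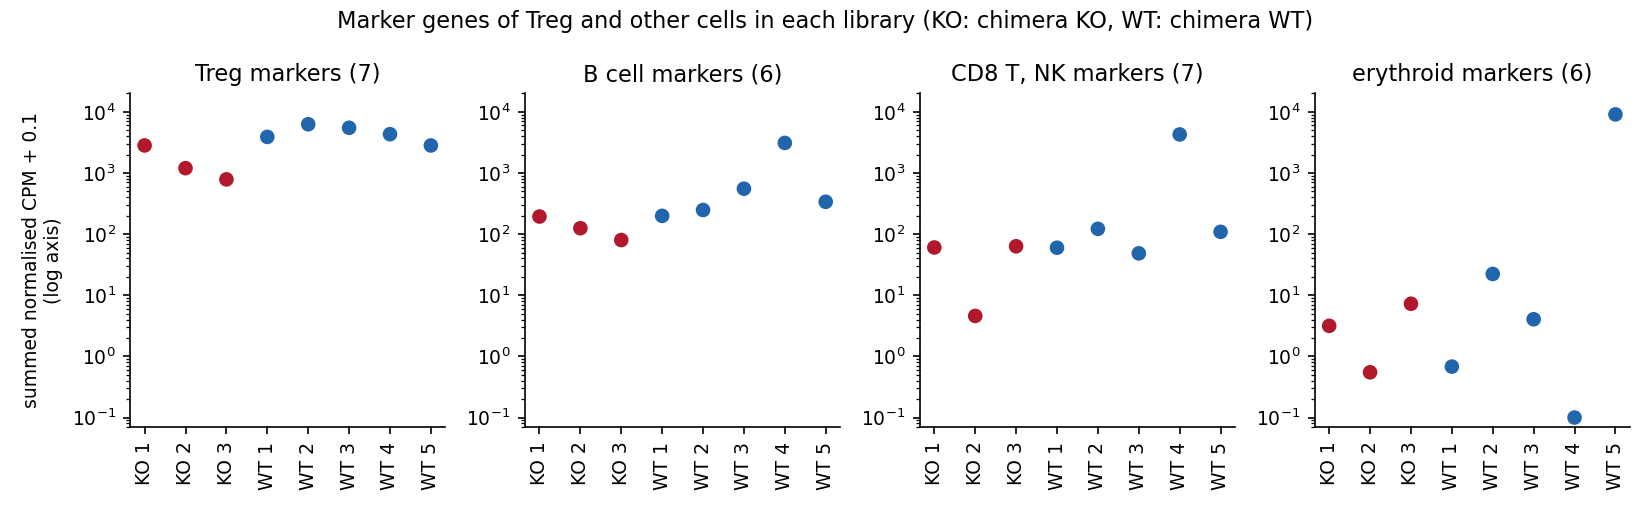
Summed TMM-normalised CPM of 4 of the marker lists in each library on a log axis (0.1 added), chimera KO left of chimera WT. CD8 T and NK cell markers reach 4276 in WT4 and erythroid markers 9102 in WT5, and no chimera KO library exceeds 63.2 or 7.16 for these lists.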

How the data were processed

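Expression was measured in 8 libraries of sorted Treg cells, grouped by their titles. Values in the deposited table are expected counts, estimated by the authors and not scaled between libraries; 20.26% were not whole. Tools named by the submitters' processing notes are RSEM, StringTie, HISAT2, fastp and DESeq2, with mm10 as the build; versions, roles and the gene annotation are not given in the sources used here. The authors' group means were not used. Coordinates came from GENCODE M21 (51884 of 57180 genes matched by identifier), TPM from the deposited lengths, and promoters from RefSeq on GRCm38.p6.

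Counts were rounded to whole numbers and, in R 4.3.3, tested with edgeR 4.0.16 (filterByExpr with a minimum count of 10, TMM, quasi-likelihood test of chimera KO minus chimera WT, two-sided, Benjamini-Hochberg adjusted p under 0.05) over 14755 genes without covariates. Standard errors are the log2 change over the square root of F. The common dispersion was 1.67. The fit was tested on simulated data of a much lower dispersion, which cannot show how well it finds changes at the spread of these libraries. Alternatives were other scalings, other filters, DESeq2 1.42.0, limma 3.58.1 with voom quality weights, a replicate block, and libraries left out. No pair of libraries within a group was near identical (lowest chi-square per degree of freedom 66.8). Totals were 4.31 to 18 mega counts.

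The members, lists and markers were chosen with earlier results of these data known. Named were all members, the 3 tested genes with the highest mean CPM of each list, the 2 highest markers of each marker list, and the 5 genes nearest to the member with the highest mean CPM (mean log2 CPM of at least 3). Irf4, Fosl1, Batf2 and Jdp2 were added after their values were seen. Protein sequences were not used here.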

Additional observations from a re-analysis of the deposited data

Results flagged for a closer look

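In 7 tested members, the 5 chimera WT libraries were searched for a single library far from the rest, and 3 were found. Chance gives about 1 in 20 groups only where values are normally distributed, which was not tested for these normalised CPM. The 3 are therefore a description and are not read as an excess over chance. Junb was at 1102 normalised CPM in WT4, against 46.4 to 89.0 in chimera KO and 38.1 to 232 in the other chimera WT libraries. Jund was at 156 in WT4, against 40.8 to 86.1 in chimera KO and 68.4 to 88.5 in the other chimera WT libraries. WT4 was also the library with B, CD8 T and NK cell markers, at 3108 and 4276 summed normalised CPM, and it had the lowest TMM factor, 0.4; their part in these values was not tested. In TPM, which does not use that factor, WT4 was highest for Junb (278) and lowest for Jund (42.7).

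Crem was at 85.1 in WT5, against 6.28 to 34.5 in chimera KO and 0 to 1.74 in the other chimera WT libraries. WT5 held the erythroid markers, at 9102 summed normalised CPM, and their part in this value was not tested.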

How the results depend on the processing

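Of 119 values of the 7 tested members under the 17 alternatives, 107 kept their direction and their side of the threshold, 11 reversed and 1 came past it. Fos, Fosb, Jun and Junb were negative under all 17, and DESeq2 was the 1 alternative to call any member (1, Fos). Over all genes, where edgeR called 0, DESeq2 called 2421, limma-voom with quality weights 22, and scaling by library totals, no filter and a mean of at least 5 CPM 1 each; the cause was not tested. Jund turned to 0.32 with library totals and Batf to 0.03 without WT4 and WT5. Crem turned to -0.36 with DESeq2 size factors and in DESeq2, to -0.15 with no filter and to -0.68 without the libraries named FY (WT2 and WT3), and ran from -0.72 to 4.64 as single libraries were left out. Without single libraries edgeR called 0 genes each time. Batf at -12.75 without KO2, where both remaining chimera KO libraries are at 0, is no bound. The median of all genes was -0.42 with TMM, -0.72 with DESeq2 size factors and 0.21 with library totals.

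With the replicate block on the 6 libraries numbered 1 to 3, edgeR called 0 genes and 0 members, with Fos at -2.53 and Crem at 4.11. Same-numbered libraries deviated together with r of 0.06, 0.01 and 0.03, and differently numbered ones with r of -0.04 to 0.01. The labels do not say whether same-numbered libraries share an animal or a batch, and these values cannot decide it.

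Fosl2, Batf3 and Atf3 did not pass the count filter and were not tested. The 3 chimera KO and 5 chimera WT libraries, with overlapping values, leave intervals of several log2 units for Fosb, Batf and Crem.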

Other observations

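Among other basic leucine zipper genes, 3 are given by library, named here after their values were seen. Nfe2l2, the master factor of the antioxidant response, was at 35.9, 8.67 and 6.44 normalised CPM in KO1 to KO3, against 33.3, 0.173, 5.88, 804 and 163 in WT1 to WT5. Cebpg was at 19.1, 0.15 and 3.76 in KO1 to KO3, against 8.63, 64.3, 0.168, 506 and 116 in WT1 to WT5. In both, WT4 and WT5 were highest and WT1 to WT3 overlapped chimera KO. Atf7, a relative of ATF2, was at 20.3, 20 and 6.26 in KO1 to KO3, against 27.5, 37.4, 42.4, 44.8 and 119 in WT1 to WT5, with no overlap between the groups. It was 1 of 25 tested genes of its list with every chimera KO library below every chimera WT library, beside 4.49% of all genes tested, a share near that of the list.

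Not all immediate early genes followed Fos. Egr1, which shares serum response elements with Fos, was at 22.2, 7.78 and 20.9 in KO1 to KO3, against 11.9, 1.47, 0, 86.5 and 0 in WT1 to WT5, so WT2, where Fos was at 547, held nearly none. Hspa1b, a heat shock gene also known from cell dissociation, had 13, 15 and 21 counts in KO1 to KO3, against 0, 0, 6, 0 and 0 in WT1 to WT5.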
